A study of Mus musculus with 12 samples.

Results

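Renal glucose reabsorption and gluconeogenesis were followed through 9 genes of kidney cortex, chosen by name for their textbook roles, with earlier results of these data known. They are 9 of 47719 genes in the expression table, and all 9 passed the expression filter that 14109 genes passed. Slc5a2 (SGLT2), Slc5a1 (SGLT1) and Slc2a2 (GLUT2) encode glucose transporters. Pcx, Pck1, Fbp1, G6pc and Slc37a4 encode enzymes and a transporter of gluconeogenesis, and Khk encodes ketohexokinase, which phosphorylates fructose.

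RNA was sequenced in 12 libraries of kidney cortex, 3 in each of 4 groups. The mice were C57BL6/J males whose labelled age is 8 weeks. EtOH4hLPS mice were fed ethanol and injected with lipopolysaccharide (LPS), PF4hLPS mice were pair-fed and injected with LPS, EtOH mice were fed ethanol and given saline, and PF mice were pair-fed and given saline. All mice had a Lieber-DeCarli liquid diet for 6 weeks, with ethanol stepped up to 6% or with maltose-dextrin in its place, and LPS from E. coli was given intraperitoneally at 10 mg/kg, 4 hours before sacrifice. The labels number the replicates without saying that each is a separate mouse, so the p-values reflect library-to-library spread, which may be technical. The labels also give whole kidney as the source beside cortex as the region. All 21 proximal tubule markers examined, Lrp2 and Slc34a1 among them, averaged at least 1 FPKM. So did the 8 markers of thick ascending limb and distal tubule and the 9 of collecting duct. These levels thus do not tell cortex from whole kidney.

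The proximal tubule reclaims filtered glucose across its brush border through sodium-glucose cotransporters, with SGLT2 acting in the early segments and SGLT1 in the late ones. Glucose then leaves the cell at the basolateral side, where GLUT2 is the main carrier of the early segments. The same cells make glucose from lactate, glutamine and other precursors. PEPCK, the product of Pck1, and glucose-6-phosphatase, the product of G6pc, are the steps best known for hormonal control.

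Values are FPKM, which scale the fragments of a gene by its length and by the library. Levels can thus be set side by side between genes, while comparisons between libraries depend on the scaling used. Summed FPKM ranged from 1005219 to 1935824 per library, and 12354 to 13092 genes reached 1 FPKM. The sums leaned higher with LPS, at 1278219 to 1935824 in LPS libraries against 1005219 to 1352739 in saline libraries. Sequencing depth was estimated from how finely low values are spaced and set to 1 in PF library 1. It was lowest in PF4hLPS library 2 (0.491) and highest in PF library 3 (1.202). All 6 LPS libraries were at 0.76 or below, as was EtOH library 2 (0.719) among the saline libraries. In EtOH4hLPS library 1, PF4hLPS library 2 and PF library 1, GC-rich genes were low relative to the mean of their group, with slopes of -0.332, -0.448 and -0.271 (log2 units for each 10% GC). The other 9 libraries had slopes of -0.078 to 0.232. The 9 genes span 43.4% GC in Slc2a2 to 58.5% GC in Khk. EtOH4hLPS library 1 had the lowest value of its group for 6 of the 9 genes, PF4hLPS library 2 for 6 and PF library 1 for 8. EtOH library 2, whose slope was -0.03, was also lowest for 6. The 3 libraries with the most negative slopes stand in different groups, and each fold change below was also computed without them.

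**Figure D1:**
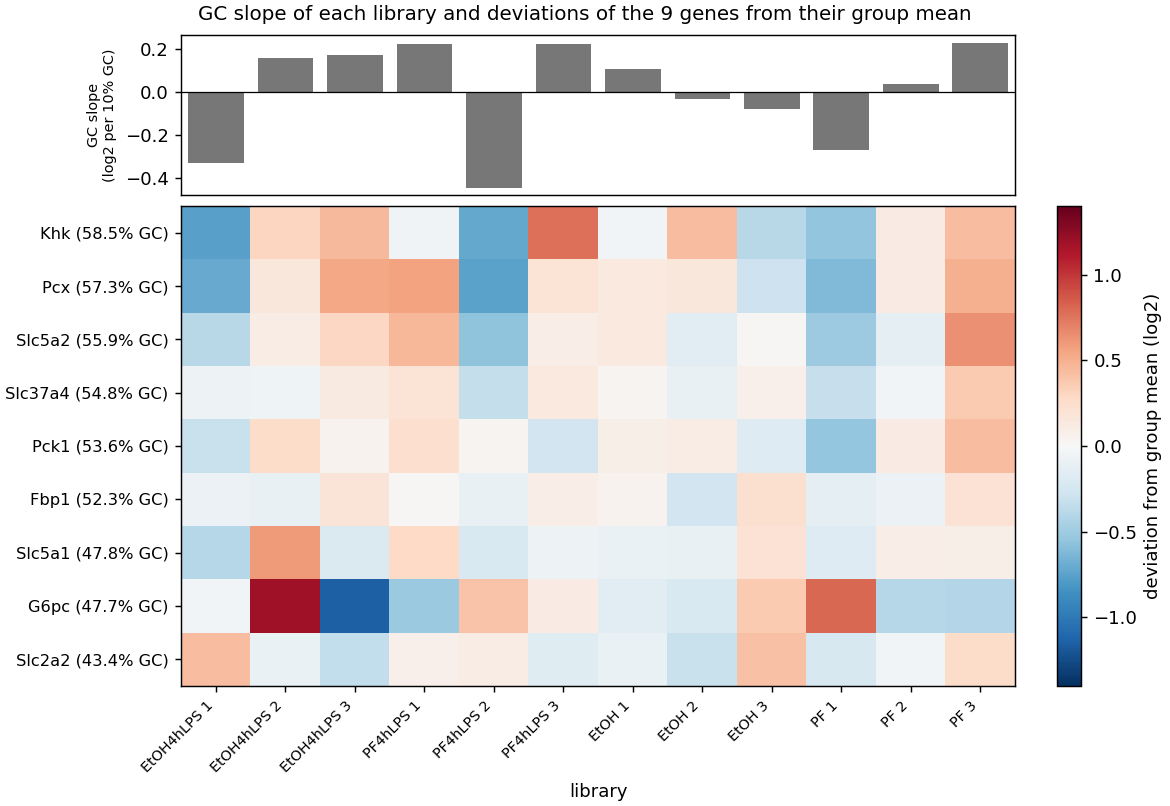
The upper bars give each library's slope of within-group deviations on GC content (log2 units per 10% GC), and the lower map gives the deviation of each gene from its group mean (log2, red above and blue below), with genes ordered by GC content. Khk and Pcx are below their group mean in EtOH4hLPS 1, PF4hLPS 2 and PF 1, while G6pc ranges from -1.14 in EtOH4hLPS 3 to 1.19 in EtOH4hLPS 2.

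Promoter windows of 300 bases, 250 before and 50 after the annotated start, are shown for Slc5a1 and Slc2a2, which passed the test after LPS, and for Pck1 and G6pc, the enzymes best known for hormonal control. The sequences are from RefSeq (GRCm38.p6), each on the + strand, at chr5:33103969-33104268 for Slc5a1, chr3:28697653-28697952 for Slc2a2, chr2:173152823-173153122 for Pck1 and chr11:101367466-101367765 for G6pc. Capitals mark matches, on either strand, to TGACGTCA or TTACGTCA (cAMP response elements), CACGTG (an E-box) and, near start sites, the core promoter letters TATAAA.
Slc5a1: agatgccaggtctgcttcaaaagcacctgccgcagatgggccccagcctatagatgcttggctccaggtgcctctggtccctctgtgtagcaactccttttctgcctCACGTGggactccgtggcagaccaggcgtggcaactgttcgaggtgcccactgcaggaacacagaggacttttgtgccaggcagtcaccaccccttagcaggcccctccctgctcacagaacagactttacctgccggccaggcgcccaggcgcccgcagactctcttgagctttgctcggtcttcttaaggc
Slc2a2: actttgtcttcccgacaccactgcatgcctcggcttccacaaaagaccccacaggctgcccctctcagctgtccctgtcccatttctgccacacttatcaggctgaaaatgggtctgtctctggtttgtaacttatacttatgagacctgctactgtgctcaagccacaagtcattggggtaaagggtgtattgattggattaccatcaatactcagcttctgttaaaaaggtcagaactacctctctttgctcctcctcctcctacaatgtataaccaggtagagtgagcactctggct
Pck1: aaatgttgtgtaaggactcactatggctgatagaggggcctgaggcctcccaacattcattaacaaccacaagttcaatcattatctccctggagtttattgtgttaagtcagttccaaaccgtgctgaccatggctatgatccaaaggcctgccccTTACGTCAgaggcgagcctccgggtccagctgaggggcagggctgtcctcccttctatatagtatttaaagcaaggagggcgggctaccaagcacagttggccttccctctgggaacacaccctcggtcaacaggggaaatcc
G6pc: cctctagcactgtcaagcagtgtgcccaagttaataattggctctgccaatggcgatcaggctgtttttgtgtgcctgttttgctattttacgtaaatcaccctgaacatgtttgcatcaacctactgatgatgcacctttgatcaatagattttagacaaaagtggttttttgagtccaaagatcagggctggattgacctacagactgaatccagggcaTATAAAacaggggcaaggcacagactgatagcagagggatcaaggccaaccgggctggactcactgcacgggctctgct
The Pck1 window holds TTACGTCA starting at position -93 from the start site. The G6pc window holds TATAAA at -29, and the Slc5a1 window holds CACGTG at -143. The Slc2a2 window holds none of these letters. Among 32851 mouse windows of this length, 0.499% hold TTACGTCA, 1.79% TGACGTCA, 7.15% CACGTG and 13.6% TATAAA, counting both strands. A shorter match, TGACG, which can lie inside the longer cAMP response elements, is in 20.8% of windows, and in Pck1 it lies on the minus strand within the marked TTACGTCA. Of the 9 genes, 8 had at least 1 window, 11 windows in all, with Slc5a2 the gene not matched. In the other windows, Khk held CACGTG at -71, Pcx held CACGTG at -248 and 1 of the Slc37a4 windows held TATAAA at -32. These matches describe letters and are not evidence of binding.

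The levels of the 9 genes kept much of their order across the groups. Pck1 was highest in all 4 groups and Fbp1 next, and both were among the most abundant protein-coding transcripts, at ranks 30 and 54 of 21695 by mean FPKM. Their ranges did not overlap in EtOH4hLPS and EtOH libraries and overlapped in PF4hLPS and PF libraries. Slc5a1 was lowest in every group, at rank 2524, and its range lay below that of the next gene in EtOH and PF libraries but overlapped it in EtOH4hLPS and PF4hLPS libraries. Between Khk and Pcx most neighbours overlapped. In EtOH libraries Slc2a2 lay above Slc5a2, and Slc5a2 above Slc37a4, without overlap, and in PF libraries Slc2a2 lay above Slc37a4 without overlap.

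**Figure D2:**
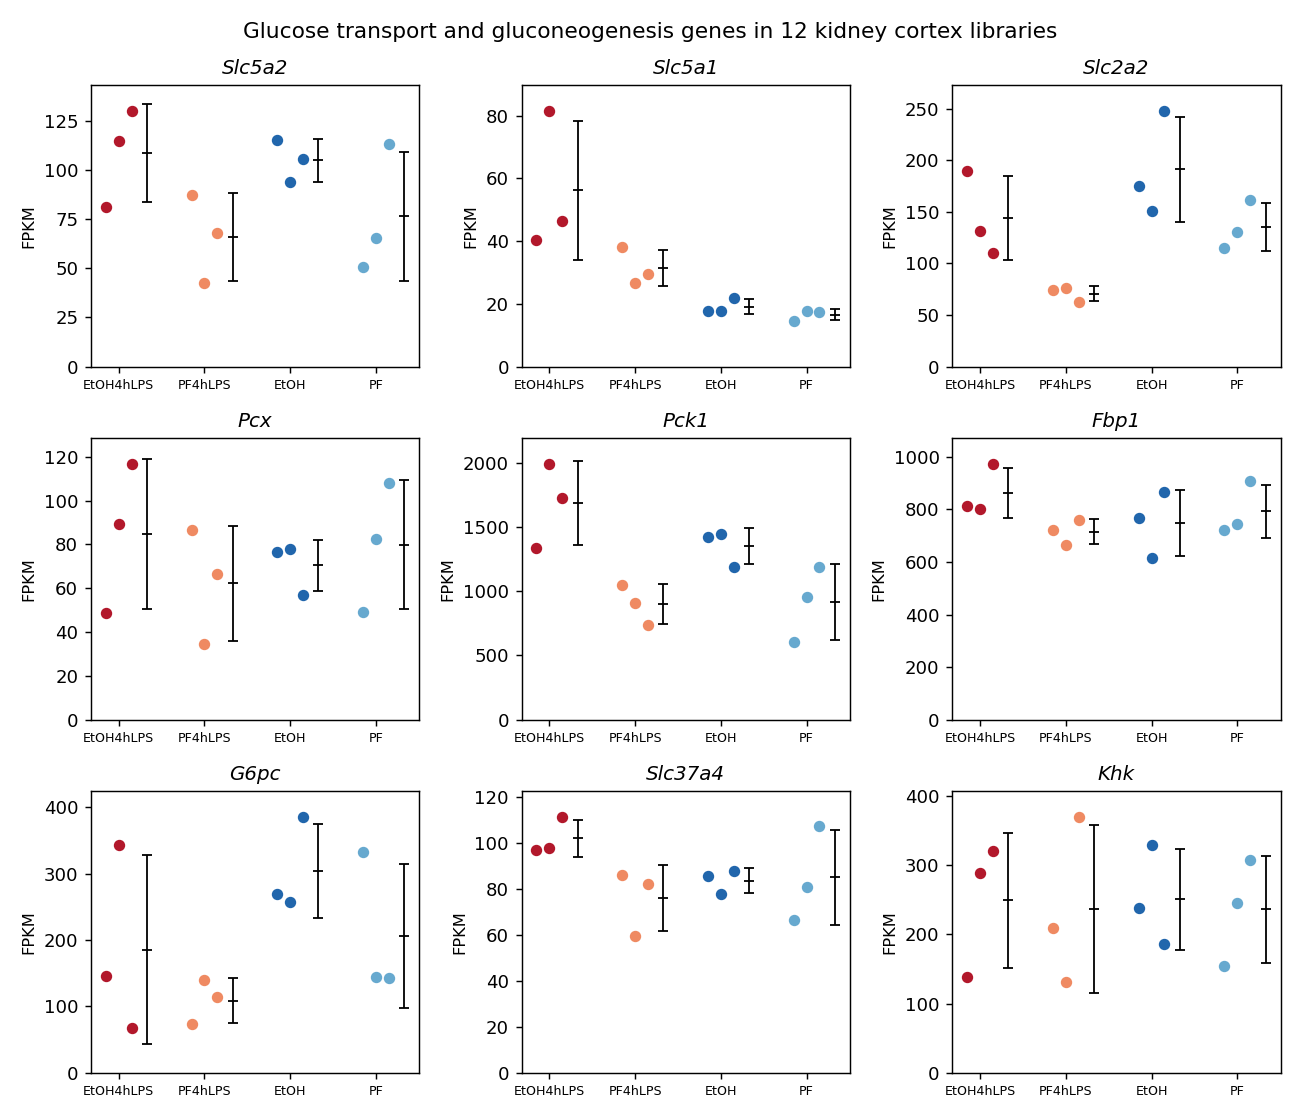
FPKM of the 9 genes (y axis, linear from 0) in each of 12 libraries by group (points), with the mean and SD of the 3 libraries of a group beside them. Slc5a1 lies above 26 FPKM in every LPS library and below 22 FPKM in every saline library, and PF4hLPS libraries have the lowest Slc2a2 values.

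After LPS in pair-fed mice, 1 transporter rose and 1 fell. Slc5a1, the high-affinity sodium-glucose cotransporter, rose 1.83-fold, and Slc2a2, the basolateral glucose carrier, fell to 0.529 of its level in PF libraries, both on the FPKM + 1 scale. The other 7 genes did not pass the test. Among all genes tested, 11.3% were higher and 6.89% lower in PF4hLPS than in PF libraries, so 1 of 9 in each direction is near the background. Leaving out PF library 2 or 3 reduced the lower share of all genes to 3.36% or 3.57%. The median log2 fold change of the 9 genes was -0.15, against -0.01 over all genes tested.

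Slc5a1 (ENSMUSG00000011034, chromosome 5, 33104219 to 33162870, mm10) had 37.97, 26.7 and 29.6 FPKM in PF4hLPS libraries, against 14.5, 17.7 and 17.5 FPKM in PF libraries. Every PF4hLPS value was above every PF value, as for 18.5% of all genes tested. The log2 fold change was 0.87 ± 0.25 (SE; 95% interval 0.34 to 1.41; limma adjusted p = 0.0289). This call rests on few libraries: it was lost when PF4hLPS library 1 or 3, or any of the 3 PF libraries, was left out, with log2 fold changes of 0.73 to 0.92 and adjusted p of 0.0536 to 0.0886. Scaling every library to the same total FPKM gave 0.40 (adjusted p = 0.38), quantile normalization 0.64 (0.0753), a GC correction 0.72 (0.0568), and testing without the filter on low values 0.87 (0.086). Without the 3 libraries of most negative GC slope it was 0.89 (0.049).

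In ethanol-fed mice Slc5a1 also rose after LPS. It had 40.4, 81.6 and 46.4 FPKM in EtOH4hLPS libraries, against 17.7, 17.6 and 21.9 FPKM in EtOH libraries, with no overlap, as for 18.8% of all genes tested. The log2 fold change was 1.45 ± 0.25 (SE; 95% interval 0.91 to 1.99; limma adjusted p = 0.00149), a 2.73-fold difference on the FPKM + 1 scale. EtOH4hLPS library 2 was far above the others, and without it the log2 fold change was 1.148 (adjusted p = 0.00314). Slc5a1 was the only one of the 9 genes that passed in this comparison, where 10.7% of all genes tested were higher and 6.39% lower (3.75% to 4.07% lower without EtOH4hLPS library 2 or 3 or any of the 3 EtOH libraries). The difference between the LPS responses of ethanol-fed and pair-fed mice was 0.57 ± 0.35 log2 units for Slc5a1 (SE; 95% interval -0.19 to 1.33; limma adjusted p = 0.988), and 0.27 without EtOH4hLPS library 2.

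Slc2a2 (ENSMUSG00000027690, chromosome 3, 28697903 to 28731359) had 73.9, 76.1 and 62.4 FPKM in PF4hLPS libraries, against 115, 131 and 161 FPKM in PF libraries. The groups did not overlap, and the log2 fold change was -0.92 ± 0.25 (SE; 95% interval -1.46 to -0.38; limma adjusted p = 0.0233). The call was lost without PF4hLPS library 3 (-0.83, adjusted p = 0.0652), PF library 2 (-0.94, 0.0675) or PF library 3 (-0.79, 0.103), and without the filter (-0.92, 0.0683). Under the 4 other scalings and corrections (median-ratio factors, quantile normalization, GC correction, equal total FPKM) it ranged from -0.934 to -1.413 and was kept. In ethanol-fed mice Slc2a2 had 189.6, 132 and 111 FPKM in EtOH4hLPS libraries, against 175, 151 and 248 FPKM in EtOH libraries. These groups overlapped, and the difference of -0.41 ± 0.25 log2 units (SE; 95% interval -0.95 to 0.13) did not pass (limma adjusted p = 0.313). Quantile normalization gave -0.85 with an adjusted p of 0.0377. The difference between the LPS responses was 0.51 ± 0.35 (SE; 95% interval -0.26 to 1.27; limma adjusted p = 0.988), so the responses were not shown to differ.

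Slc5a2 (ENSMUSG00000030781, chromosome 7, 128265657 to 128272430), which encodes the cotransporter that reclaims most filtered glucose, did not pass the test after LPS. It had 87.7, 42.7 and 67.8 FPKM in PF4hLPS libraries, against 50.7, 65.6 and 114 FPKM in PF libraries. It had 81.5, 115 and 131 FPKM in EtOH4hLPS libraries, against 116, 94.1 and 106 FPKM in EtOH libraries. Both pairs of groups overlapped, with log2 fold changes of -0.19 (95% interval -0.89 to 0.52) in pair-fed and 0.03 (-0.68 to 0.73) in ethanol-fed mice. The gene shares 1052 bases with BC017158 on the opposite strand, which averaged 40.8 FPKM, and the strand setting of the authors' counting is not given in the sources used here. BC017158 averaged 50.8 ± 2.3 FPKM in EtOH4hLPS, 31.1 ± 6.36 in PF4hLPS, 46.8 ± 7.68 in EtOH and 34.6 ± 4.91 in PF libraries (SD, n = 3 each). Fragments from the shared bases cannot be assigned to either gene here. Slc2a2 overlaps the antisense gene 1700112D23Rik, which averaged 2.60 FPKM, and Slc5a1 overlaps 2 pseudogenes, Gm15936 and 5033423K11Rik, which averaged 0.273 and 0.348 FPKM.

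The balance of the brush-border cotransporters was taken as the log2 ratio of Slc5a2 to Slc5a1 within each library, which does not depend on library scaling apart from the pseudocount. It was 0.99, 0.49 and 1.47 in EtOH4hLPS and 1.19, 0.66 and 1.17 in PF4hLPS libraries. It was 2.64, 2.35 and 2.22 in EtOH and 1.74, 1.83 and 2.63 in PF libraries. All 6 LPS libraries were below all 6 saline libraries. The mean difference, LPS minus saline within diet, was -1.24 log2 units, -1.42 in ethanol-fed and -1.06 in pair-fed mice (two-sided exact permutation test within diet, p = 0.005, the smallest that the 400 assignments allow; adjusted p = 0.02 over the 8 ratio tests). The ratio uses the Slc5a1 values already given, so it is not a separate measurement. Ethanol against pair-feeding gave 0.16 (exact permutation p = 0.47). The ratio sets Slc5a2, at 55.9% GC, over Slc5a1, at 47.8% GC, so it is not free of differences that follow GC content. Across 14063 genes, log2 fold changes fell with GC content (Spearman correlation -0.316 for PF4hLPS vs PF and -0.11 for EtOH4hLPS vs EtOH). The part of GC content, and of fragments shared with BC017158, in the LPS difference of this ratio was not tested.

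**Figure D3:**
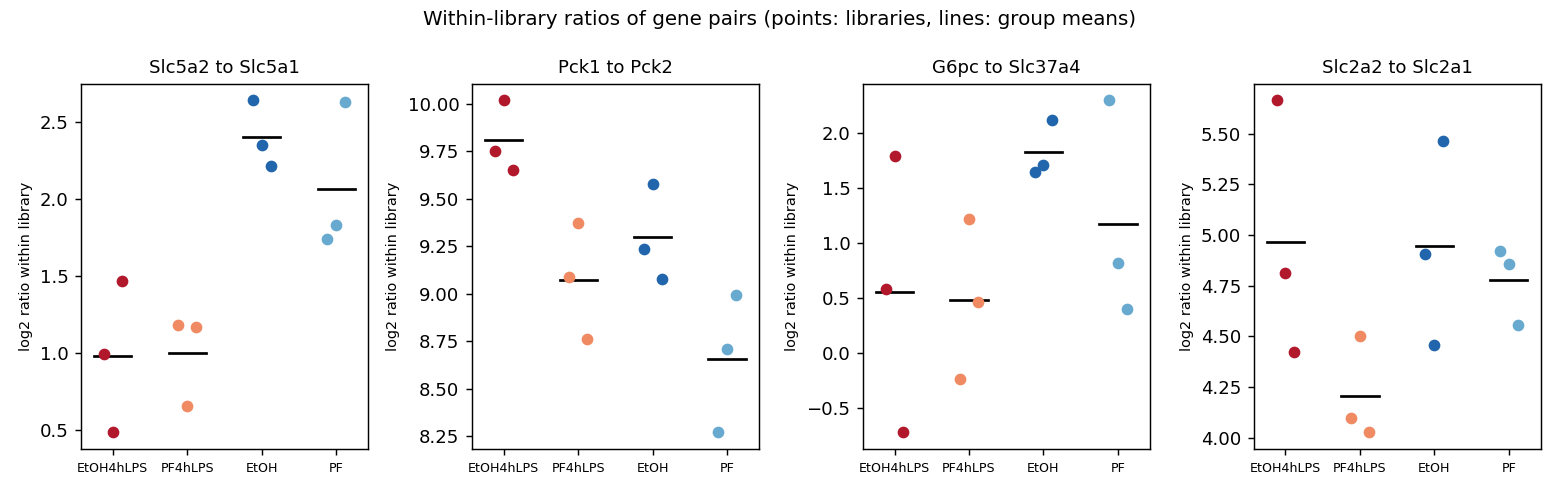
Log2 ratios of 4 gene pairs within each library (y axes, log2 units; points are libraries, lines are group means of 3), by group. All 6 LPS libraries lie below all 6 saline libraries in the Slc5a2 to Slc5a1 panel, whereas LPS and saline libraries overlap in both diets in the G6pc to Slc37a4 panel. In the Slc2a2 to Slc2a1 panel PF4hLPS libraries lie below PF libraries, and EtOH4hLPS and EtOH libraries overlap.

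The gluconeogenic genes did not pass the test after LPS in either diet. G6pc (ENSMUSG00000078650, chromosome 11, 101367561 to 101377903), the catalytic subunit of the last step, had the widest spread within a group. It had 73.2, 139 and 114 FPKM in PF4hLPS libraries, against 332, 144 and 142 FPKM in PF libraries, and every PF4hLPS value was lower. Among all genes tested, 15.7% were lower in PF4hLPS without overlap. The log2 fold change was -0.84 ± 0.52 (SE; 95% interval -1.995 to 0.308; limma adjusted p = 0.303). In ethanol-fed mice G6pc had 146, 343 and 67.4 FPKM in EtOH4hLPS libraries, against 269.8, 257 and 385 FPKM in EtOH libraries. EtOH4hLPS library 2 was within the range of EtOH libraries and the other 2 were below it. The log2 fold change was -0.99 ± 0.52 (SE; limma adjusted p = 0.251), and it was -1.58 (adjusted p = 0.0437) without EtOH4hLPS library 2 and -0.42 (0.648) without EtOH4hLPS library 3.

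Pck1 (ENSMUSG00000027513, chromosome 2, 173153048 to 173159273), which encodes the cytosolic PEPCK that makes phosphoenolpyruvate, had 1048, 911 and 735 FPKM in PF4hLPS libraries, against 605, 955 and 1192 FPKM in PF libraries. It had 1340.2, 1993 and 1728 FPKM in EtOH4hLPS libraries, against 1420.4, 1445 and 1189.8 FPKM in EtOH libraries. The groups overlapped in both diets, with log2 fold changes of 0.01 (95% interval -0.59 to 0.61) in pair-fed and 0.31 (-0.29 to 0.91) in ethanol-fed mice. Pcx, pyruvate carboxylase, ranged from 34.3 to 86.4 FPKM in PF4hLPS, against 49.2 to 108 FPKM in PF libraries, and from 48.6 to 117 FPKM in EtOH4hLPS, against 57.0 to 77.7 FPKM in EtOH libraries. Fbp1, fructose-1,6-bisphosphatase, was the steadiest in relative terms in PF4hLPS libraries, with a coefficient of variation of 6.68%. It averaged 715 ± 47.8 FPKM in PF4hLPS and 792 ± 102 in PF libraries, and 864 ± 95.5 in EtOH4hLPS and 748 ± 127 in EtOH libraries (SD, n = 3 each).

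Slc37a4, which carries glucose-6-phosphate into the endoplasmic reticulum for the G6pc enzyme, had 97.0, 98.1 and 111 FPKM in EtOH4hLPS libraries, against 85.6, 77.6 and 87.8 FPKM in EtOH libraries. These did not overlap, and the difference of 0.28 ± 0.21 log2 units (SE; limma adjusted p = 0.415) did not pass. It averaged 75.9 ± 14.4 FPKM in PF4hLPS and 85.0 ± 20.7 FPKM in PF libraries (SD, n = 3 each). The log2 ratio of G6pc to Slc37a4 was lower after LPS by a mean of -0.98 within diet, which did not pass (two-sided exact permutation p = 0.09, adjusted p = 0.18). Khk ranged from 131 to 369 FPKM in PF4hLPS and 155 to 307 FPKM in PF libraries, and from 138 to 320.3 FPKM in EtOH4hLPS and 185 to 329 FPKM in EtOH libraries, with log2 fold changes of -0.07 and -0.06 after LPS in pair-fed and ethanol-fed mice.

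**Figure D4:**
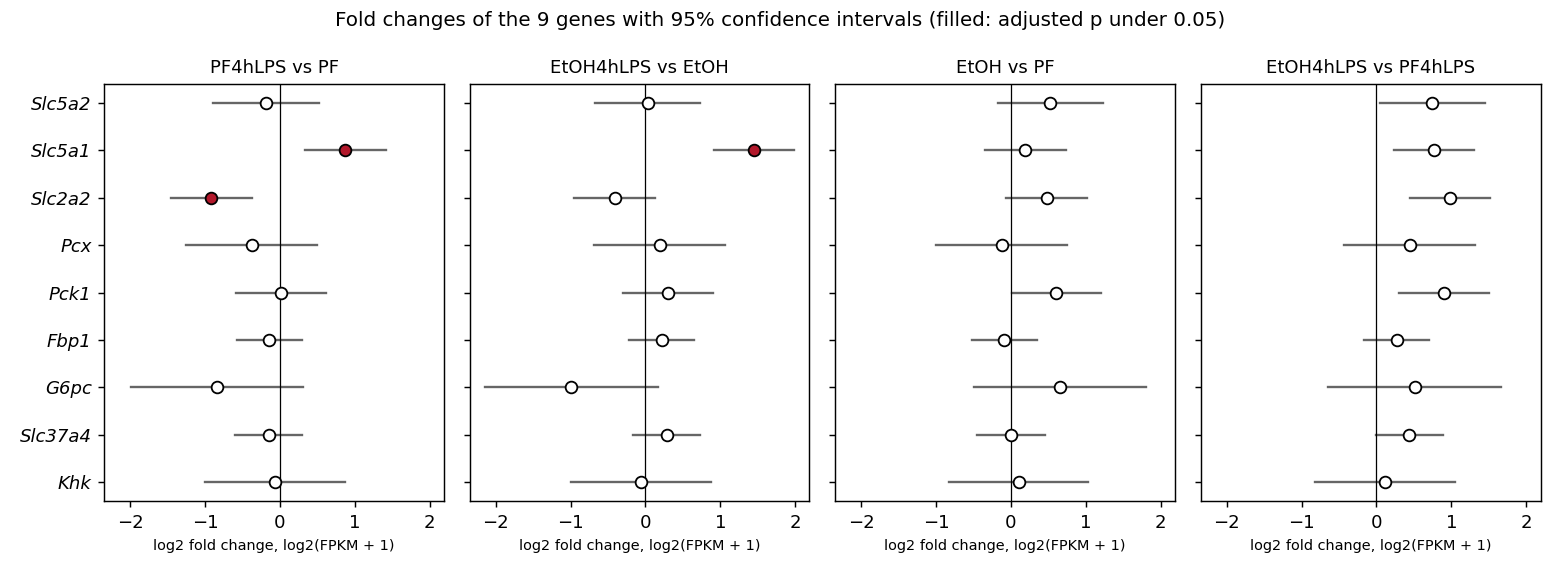
Log2 fold changes on the log2(FPKM + 1) scale (x axis) of the 9 genes with 95% confidence intervals in 4 comparisons, filled where the limma adjusted p was under 0.05. Slc5a1 is filled in both LPS comparisons and Slc2a2 in PF4hLPS vs PF, and no gene is filled in either ethanol comparison.

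The LPS results stand beside changes in cell type markers. The mean log2 level of the 21 proximal tubule markers was 0.31 lower in PF4hLPS than in PF libraries and 0.04 higher in EtOH4hLPS than in EtOH libraries. Their summed FPKM was 70503 to 114119 in PF4hLPS against 61692 to 88060 in PF libraries. It was 49020 to 75304 in EtOH4hLPS against 48453 to 54506 in EtOH libraries. The direction in pair-fed mice thus depends on the summary used. A sum is weighted toward the most abundant markers, while the mean log2 level counts the 21 markers alike. Their log2 fold changes in PF4hLPS vs PF had a median of -0.295 and ran from -1.22 for Slc7a8 to 0.37 for Kap. Of these markers, 3 of 21 passed the test in PF4hLPS vs PF, all lower, namely Slc7a8, Slc22a8 and Slc6a19. Each of these calls was lost without PF library 3 (-1.002, -0.81 and -0.70). Slc6a19 also lost its call without PF4hLPS library 1 or 2 or PF library 2, passing in 8 of 12 refits that left out 1 library. Slc22a8 passed in 4 of 12, and also lost its call without EtOH4hLPS library 3, PF4hLPS library 2 or 3, any of the 3 EtOH libraries or PF library 2. None of the 21 passed in EtOH4hLPS vs EtOH by limma, and 1 had an unadjusted p under 0.05. Relative to that marker mean, Slc5a1 was higher by 1.18 and 1.41 log2 units after LPS in pair-fed and ethanol-fed mice. Slc2a2 was lower by -0.61 and -0.45. The summed FPKM of 5 neutrophil markers, of which 4 rose in each diet, led by S100a8 and S100a9, was 168 to 421 in LPS libraries, against 3.10 to 5.45 in saline libraries. The sum of 5 endothelial markers, of which 4 fell and Cdh5 rose in each diet, was 31.4 to 48.4, against 83.7 to 109.7 FPKM in saline libraries. In bulk RNA, fewer cells of a type and less RNA per cell cannot be told apart, and the part of these shifts in the members' values was not tested.

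Single genes elsewhere in glucose metabolism passed the test after LPS, among them genes of glycolysis. Of 13 tested glycolytic genes, 3 rose and 1 fell in PF4hLPS vs PF, and 3 rose in EtOH4hLPS vs EtOH. Here and in the lists that follow, the counts stand against 11.3% of all genes higher and 6.89% lower in PF4hLPS vs PF, and 10.7% and 6.39% in EtOH4hLPS vs EtOH. Pfkfb3, whose product makes the activator of phosphofructokinase, had 59.8, 70.5 and 83.9 FPKM in EtOH4hLPS libraries, against 3.81, 5.24 and 3.22 FPKM in EtOH libraries. It had 64.2, 49.8 and 59.8 FPKM in PF4hLPS libraries, against 3.67, 6.32 and 4.91 FPKM in PF libraries, and its log2 fold changes were 3.84 and 3.32 in ethanol-fed and pair-fed mice. In ethanol-fed and pair-fed mice Hk2, an inducible hexokinase, rose by 2.02 and 2.01, and Pfkp, a phosphofructokinase, by 0.96 and 1.49. Pfkm, another phosphofructokinase, fell by 0.88 in pair-fed mice, a call lost without PF library 3 (-0.73, adjusted p = 0.0553). The median log2 fold change of the glycolytic list was 0.03 in ethanol-fed and -0.12 in pair-fed mice, close to that of all genes.

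Of 20 other tested genes of gluconeogenesis and shared glycolytic steps, 1 passed in PF4hLPS vs PF, Pgm2 with a log2 fold change of 1.74. In EtOH4hLPS vs EtOH limma called none of the 20, and 2 had an unadjusted p under 0.05. Of 14 other hexose transporter genes and their partners, Slc2a6 rose in both diets (log2 fold changes of 1.25 in ethanol-fed and 1.12 in pair-fed mice, at no more than 2.40 FPKM), and Slc2a9, a urate carrier, fell by 0.75 in pair-fed mice. Of 8 genes of fructose and polyol metabolism, Slc2a9 alone passed in pair-fed mice and in ethanol-fed mice limma called none and none had an unadjusted p under 0.05. Of 24 genes for the entry of lactate, glycerol, glutamine and pyruvate, 2 fell in pair-fed mice, Gpd1 by 1.17 and Gpt2 by 0.91, and 2 rose in ethanol-fed mice, shares near those of all genes. These were Pdk4, the kinase that turns pyruvate dehydrogenase off, and Glud1, glutamate dehydrogenase. In pair-fed mice Pdk4 and Glud1 differed by 2.79 and 0.22 and did not pass (limma adjusted p = 0.0955 and 0.611). Gpd1 and Gpt2 differed by -0.59 and 0.03 in ethanol-fed mice and did not pass. For the interaction limma called none of the 24 genes, so the responses of the diets were not shown to differ. Pdk4 had 18.8, 250 and 457 FPKM in EtOH4hLPS libraries, against 4.01, 5.49 and 3.78 FPKM in EtOH libraries (log2 fold change 4.61, limma adjusted p = 0.0136), and without EtOH4hLPS library 2 it no longer passed (4.15, adjusted p = 0.0538). Glud1 also no longer passed without that library (0.66, adjusted p = 0.0626) or without EtOH library 2 (0.87, 0.0847). In pair-fed mice Gpd1 lost its call without PF4hLPS library 2 or 3, EtOH library 1, or PF library 2 or 3 (-0.82 to -1.27, adjusted p = 0.0526 to 0.147). Gpt2 lost it without PF4hLPS library 2 or PF library 2 or 3 (-0.68 to -0.89, 0.0881 to 0.122), Slc2a6 without PF4hLPS library 1 or 3 or PF library 2 or 3 (0.85 to 1.12, 0.0547 to 0.0614), and Slc2a9 without PF library 2 (-0.64, 0.0659).

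**Figure D5:**
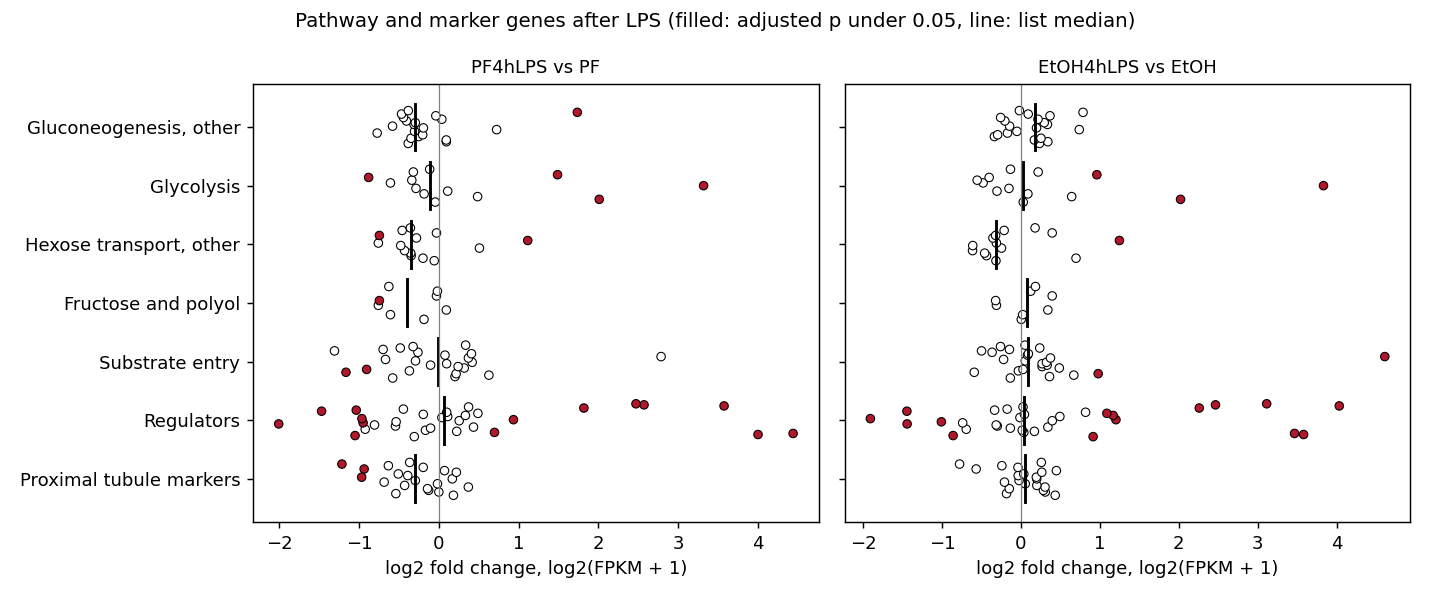
Log2 fold changes on the log2(FPKM + 1) scale (x axis) of the tested genes of 7 lists (rows; points are genes, filled where the limma adjusted p was under 0.05, vertical lines are list medians) after LPS in pair-fed (left) and ethanol-fed (right) mice. The list medians lie between -0.40 and 0.18, while single regulators and glycolytic genes lie above 3.

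Transcription factors and signalling genes that act on gluconeogenesis changed in both directions. Of 32 tested, 8 rose and 6 fell in PF4hLPS vs PF, and 10 rose and 5 fell in EtOH4hLPS vs EtOH. The largest rises in ethanol-fed mice were those of Socs3, a feedback inhibitor of cytokine signalling (log2 fold change 4.04), and of Cebpb and Cebpd (3.58 and 3.47), factors of the acute phase response. In pair-fed mice Cebpd, Cebpb and Socs3 rose by 4.44, 4.00 and 3.58. Ppargc1a, which encodes the coactivator PGC-1alpha, had 18.0, 5.66 and 5.38 FPKM in EtOH4hLPS libraries, against 24.4, 23.3 and 25.5 FPKM in EtOH libraries. It had 6.58, 10.0 and 4.77 FPKM in PF4hLPS libraries, against 22.3, 20.2 and 19.7 FPKM in PF libraries. Its log2 fold changes were -1.45 and -1.47 (limma adjusted p = 0.0168 and 0.0152 in ethanol-fed and pair-fed mice), with each call lost in some refits that left out 1 library. Those libraries were EtOH4hLPS 2 or 3 and EtOH 1 or 3 in ethanol-fed mice (-1.17 to -1.45) and PF4hLPS 3 in pair-fed mice (-1.25, adjusted p = 0.0583). Klf15, a glucocorticoid-responsive factor, fell by 1.91 in ethanol-fed and 0.97 in pair-fed mice. Hnf4a, a nuclear receptor of the proximal tubule, fell by 0.95 in pair-fed mice, a call lost without PF4hLPS library 3 (-0.80, adjusted p = 0.0616) and without PF library 2 (-0.99, 0.0516) or 3 (-0.87, 0.0784). In ethanol-fed mice Hnf4a differed by -0.74 and did not pass (limma adjusted p = 0.0607). Its LPS responses in the diets differed by 0.21 ± 0.35 log2 units (SE), which did not pass. Ppargc1a, Klf15 and Hnf4a were named after their values were seen, outside the rule for naming genes, and all of them fell. Other genes outside the rule rose, among them Nr4a1 by 1.09 in ethanol-fed mice (limma adjusted p = 0.00294). Creb1 rose by 0.70 in pair-fed mice (limma adjusted p = 0.0166, and 0.0154 to 0.384 under the alternatives).

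Ethanol against pair-feeding in saline-treated mice called none of the 9 genes. The percentage called by limma among all genes tested was 0.0142% in each direction, and at an unadjusted p under 0.05 1 of the 9 genes, Pck1, and 3.69% of all genes passed. Pck1 differed by 0.61 ± 0.27 log2 units (SE; 95% interval 0.01 to 1.21; limma adjusted p = 1), and its groups overlapped through PF library 3 at 1192 FPKM. For none of the 9 genes were the groups free of overlap, against 5.63% of all genes tested on the higher and 6.93% on the lower side. The log2 fold changes of the other members ran from -0.12 for Pcx to 0.66 for G6pc, with 7 of 9 above 0 and a median of 0.19, against -0.01 over all genes.

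With LPS in both diets, all 9 genes were on the higher side in EtOH4hLPS libraries, and none passed the test. The median log2 fold change was 0.51, against 0.00 over all genes tested, and the range was 0.11 for Khk to 0.98 for Slc2a2. The percentage called by limma was 0.0354% higher and 0.0638% lower. At an unadjusted p under 0.05, 4 of the 9 genes and 10.8% of all genes passed. EtOH4hLPS values lay above PF4hLPS values without overlap for 5 of the 9 genes, Slc2a2, Pck1, Slc5a1, Slc37a4 and Fbp1, against 5.34% of all genes tested. Slc2a2 had 189.6, 132 and 111 FPKM in EtOH4hLPS libraries, against 73.9, 76.1 and 62.4 FPKM in PF4hLPS libraries, a log2 difference of 0.98 ± 0.25 (SE; 95% interval 0.44 to 1.52; limma adjusted p = 0.156). Pck1 was higher by 0.91 ± 0.27 (SE; limma adjusted p = 0.243) and Slc5a1 by 0.77 ± 0.25 (SE; limma adjusted p = 0.274). Without EtOH4hLPS library 2, Slc5a1 was higher by 0.47 (adjusted p = 0.668).

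Most other proximal tubule markers were also on the higher side in this comparison, and fold changes rose with GC content. The median log2 fold change of the 21 proximal tubule markers was 0.37, and limma called none of them, with 7 of 21 at an unadjusted p under 0.05. Kap, Slc22a7, Atp11a, Slc7a13 and Acsm2 were on the lower side (-0.64, -0.61, -0.29, -0.26 and -0.03). The mean log2 level of the 21 markers was 0.37 higher in EtOH4hLPS than in PF4hLPS libraries. Their summed FPKM, which is weighted toward the most abundant markers, leaned lower, at 49020 to 75304 in EtOH4hLPS against 70503 to 114119 in PF4hLPS libraries. The 20 other tested genes of gluconeogenesis had a median of 0.36, with none called and 3 at an unadjusted p under 0.05. Relative to the mean of the proximal tubule markers, the 9 genes ran from -0.26 for Khk to 0.61 for Slc2a2, with Pck1 at 0.54, Slc5a1 at 0.40, Slc5a2 at 0.38, G6pc at 0.14 and Fbp1 at -0.10. Over 14063 genes the log2 fold change rose with GC content, with a Spearman correlation of 0.354, as a description across genes that share 6 libraries. Slc2a2, G6pc and Slc5a1 have 43.4%, 47.7% and 47.8% GC, and the other 6 members have 52.3% (Fbp1) to 58.5% (Khk), with Pck1 at 53.6% and Slc5a2 at 55.9%. With a GC correction the log2 difference was 1.12 for Slc2a2 (limma adjusted p = 0.0671), 0.80 for Slc5a1 (0.193), 0.79 for Pck1 (0.191), 0.60 for Slc5a2 (0.244) and -0.06 for Khk (0.962), and none of the 9 passed. The part of tubular RNA in these values was not tested.

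Averaged over both LPS states, all 9 genes were on the higher side in ethanol-fed libraries, and none passed the test. The percentage called by limma was 0.0992% higher and 0.22% lower, and at an unadjusted p under 0.05 4 of the 9 genes and 9.45% of all genes passed. Pck1 was higher by 0.76 ± 0.19 log2 units (SE; 95% interval 0.33 to 1.18; limma adjusted p = 0.172) and Slc2a2 by 0.73 ± 0.17 (SE; 0.35 to 1.11; limma adjusted p = 0.143). Slc5a2 and Slc5a1, the others with an unadjusted p under 0.05, differed by 0.64 and 0.48, and G6pc, with an unadjusted p of 0.144 by limma, by 0.58. This average shares its libraries with the ethanol comparisons above. For the interaction of diet and LPS, limma called 0.0142% of genes in each direction and none of the 9, which had unadjusted p of 0.125 or more, while 4.37% of all genes had an unadjusted p under 0.05.

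Within libraries, the log2 ratio of Pck1 to Pck2, the mitochondrial isoform, was higher with ethanol. It was 9.75, 10.02 and 9.65 in EtOH4hLPS libraries, against 9.09, 9.37 and 8.76 in PF4hLPS libraries. It was 9.24, 9.58 and 9.08 in EtOH libraries, against 8.27, 8.71 and 8.996 in PF libraries, with no overlap in either LPS state. The mean difference was 0.69, with 0.74 under LPS and 0.64 under saline (two-sided exact permutation test within LPS state, p = 0.005, the smallest possible; adjusted p = 0.02 over the 8 ratio tests). Pck2 was at 0.377 to 1.35 FPKM, at or near the pseudocount of 1. The ratio therefore largely repeats the Pck1 values already given and at most partly removes library scaling. It is not a separate measurement, and Pck1 itself, higher by 0.76 with ethanol over both LPS states, did not pass (limma adjusted p = 0.172). With ethanol Pck2 itself differed by 0.17 log2 units under LPS and -0.03 under saline, and after LPS by -0.20 in ethanol-fed and -0.41 in pair-fed mice, none of which passed by limma. With a pseudocount of 0.1 the difference with ethanol was 0.60 with an adjusted p of 0.0667. The ratio was higher by 0.46 after LPS, with an adjusted p of 0.0533 by the exact permutation test. With a pseudocount of 0.1 it was higher by 0.76 and passed (adjusted p = 0.04), and it passed in 3 of 12 tests that left out 1 library. The ratio of Slc2a2 to Slc2a1, the widespread carrier GLUT1, differed by -0.27 after LPS (exact permutation p = 0.295), with 0.02 in ethanol-fed and -0.57 in pair-fed mice, and by 0.46 with ethanol (p = 0.13, adjusted p = 0.208).

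The genes most like each member over the 12 libraries were taken as the 3 with the highest Pearson r among 7359 protein-coding genes, as a description of libraries that share groups and GC slopes. Slc5a1 was most like Arhgef3 (r = 0.977), Susd6 (0.974) and Elmsan1 (0.966). Slc2a2 was most like Slc16a10 (0.952), an aromatic amino acid carrier, then Fam149a (0.945) and Slc7a8 (0.936), also an amino acid carrier. Slc5a2 was most like Cyp2d26 (0.962), Tuba4a (0.958) and Slc34a3 (0.951), a proximal tubule phosphate transporter. Of the most GC-rich members, Khk was nearest to Ndufb7 (0.977), a respiratory chain subunit, and Pcx to Eef2 (0.967), a translation elongation factor. Pck1 was nearest to Scnn1b (0.905), G6pc to Fam107b (0.894), Slc37a4 to Ppp1r16b (0.896) and Fbp1 to Ptgfr (0.867).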

How the data were processed

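RNA was measured in 12 libraries. The RNA was a mirVana total RNA extract, and libraries came from the TruSeq Stranded Total RNA kit with Ribo-Zero Gold, per the labels' protocols. The authors deposited FPKM per gene, and the submitters' processing notes name Cuffnorm, Cuffdiff 2.1.1, Cufflinks 2.2.1, TopHat2 2.0.4, FastQC 0.10.1 and the build mm10. The annotation release is not given in the sources used here. Symbols, coordinates and GC content are from GENCODE M21 (47305 genes matched, 414 not). All 37 mitochondrial genes are listed at 0.

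The 14109 genes that reached 1 FPKM in 3 or more libraries were tested on log2(FPKM + 1), which understates changes of low genes, in limma 3.58.1 (R 4.3.3) with 1 mean per group, a trended robust prior, two-sided tests and Benjamini-Hochberg adjustment over all genes (threshold 0.05). Errors on FPKM are SD. Within-library ratios were tested by exact permutation within strata and adjusted over 8 tests. A permutation of 3 against 3 libraries cannot go below p = 0.1. Single genes were given no permutation test, within strata or otherwise. Both procedures were tested on simulated data, but no error rates from that are given here. Named genes were the 9 members and, of each list, up to 6 past the threshold with the largest fold change. The members and lists were chosen with earlier results of these data known. Alternatives covered pseudocount, filter, scaling, GC correction, prior, groups fitted, replicate block and leaving out libraries. Within groups, libraries correlated at a mean r of 0.919 to 0.962, and none was counted as a duplicate. A result that the rule for naming genes would include is not reported here.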

Additional observations from a re-analysis of the deposited data

How the results depend on the processing

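Slc5a1 in EtOH4hLPS vs EtOH passed under every alternative run (1.13 to 1.65). In PF4hLPS vs PF, the count of members higher was 0 with no filter, equal total FPKM, quantile normalization and GC correction, and the count lower was 0 with no filter. In EtOH4hLPS vs EtOH the count lower was 1 under quantile normalization. Leaving out 1 library gave 0 to 1 for both counts in PF4hLPS vs PF and for the count lower in EtOH4hLPS vs EtOH. These members were Slc5a1 and Slc2a2, and in the last case G6pc. The log2 ratio of Pck1 to Pck2 with a pseudocount of 0.1 was 0.759 after LPS and 0.603 with ethanol, and leaving out 1 library gave 0.366 to 0.547 after LPS.

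Signs turned only for values that did not pass. In PF4hLPS vs PF these were Pck1 at -0.491 (equal total), -0.509 (quantile), -0.007 (median-ratio) and -0.281 (3 libraries of most negative GC slope left out, chosen after seeing the data), and Khk at 0.132 (GC) and 0.018 (3 left out). In EtOH4hLPS vs EtOH, equal total FPKM gave Pck1 -0.031, Fbp1 -0.122, Pcx -0.142, Slc37a4 -0.049 and Slc5a2 -0.305, quantile normalization gave -0.107, -0.284, -0.215, -0.118 and -0.403 for the same genes, median-ratio factors gave Slc5a2 -0.003, and Khk was 0.320 with 3 left out. In EtOH vs PF, Fbp1 was 0.012 (equal total) and 0.038 (quantile), and with 3 left out Slc37a4 was -0.158 and Khk -0.173. In EtOH4hLPS vs PF4hLPS, Khk was -0.057 (GC). With the diets pooled over LPS, Pcx was -0.003 and Khk -0.022 with 3 left out. For the interaction, G6pc was 0.016 (equal total) and Khk -0.066 (quantile), -0.006 (median-ratio) and -0.138 (GC). The cause of these turns was not tested.

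Leaving out 1 library turned signs within these ranges. PF4hLPS vs PF: Pck1 -0.263 to 0.225, Slc37a4 -0.312 to 0.028, Slc5a2 -0.441 to 0.133, Khk -0.451 to 0.293. EtOH4hLPS vs EtOH: Pcx -0.081 to 0.543, Slc5a2 -0.113 to 0.223, Khk -0.283 to 0.320. EtOH vs PF: Fbp1 -0.200 to 0.047, Pcx -0.432 to 0.128, Slc37a4 -0.158 to 0.183, Khk -0.173 to 0.319. EtOH4hLPS vs PF4hLPS: G6pc -0.083 to 1.082, Khk -0.249 to 0.495. Pooled: Pcx -0.024 to 0.338, Khk -0.074 to 0.298. Interaction: G6pc -0.738 to 0.427, Slc5a2 -0.104 to 0.470, Khk -0.350 to 0.394.

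The median log2 fold change of all genes, -0.007 in PF4hLPS vs PF and 0.018 in EtOH4hLPS vs EtOH, was -0.411 and -0.270 with equal total FPKM, -0.115 and -0.125 with quantile normalization and -0.107 and -0.098 with GC correction. All-gene calls, 1589 higher and 972 lower in PF4hLPS vs PF, were 844 and 2679 with equal total FPKM, 1388 and 1168 with quantile normalization and 1494 and 1768 with GC correction. In EtOH4hLPS vs EtOH, 1504 and 902 became 969 and 1861, 1279 and 971, and 1474 and 1883. Replicate numbers did not pair the libraries: same-numbered libraries' deviations correlated at -0.206 to 0.279, and 3 of 12 correlated best with their own number. The replicate block left every member count as it was, with all-gene calls of 1454 and 829 in PF4hLPS vs PF, 1 and 1 instead of 5 and 9 in EtOH4hLPS vs PF4hLPS, and 3 and 6 instead of 14 and 31 pooled. With GC correction the last 2 comparisons had 21 and 17, and 51 and 52. Other all-gene counts that moved by over 1.5 times were 605 lower in PF4hLPS vs PF with only those groups fitted, 1450 lower in EtOH4hLPS vs EtOH with 3 left out, and, in EtOH vs PF, 4 and 16 with only those groups, 4 and 4 with no filter and 5 and 6 with 3 left out, instead of 2 and 2 (2 and 1 with median-ratio factors, no trend or robust prior, or the block). They were, in EtOH4hLPS vs PF4hLPS, 5 and 5 with only those groups, 2 and 4 with a pseudocount of 0.1, 1 and 0 with no filter, 1 and 1 with equal total FPKM, 2 and 5 with no trend or robust prior, and pooled, 4 and 9 with no filter and 9 and 17 with equal total FPKM. For the interaction, 2 and 2 became 4 and 3 with no filter and 1 and 3 with a pseudocount of 0.1. Leaving out 1 library gave 1129 to 1649 higher and 470 to 1085 lower in PF4hLPS vs PF (470 and 500 lower without PF library 2 and 3), and 1152 to 1625 and 525 to 1072 in EtOH4hLPS vs EtOH (525 to 571 lower without EtOH4hLPS library 2 or 3 or any EtOH library). It gave 0 to 3 and 0 to 5 in EtOH vs PF, 0 to 16 and 0 to 26 in EtOH4hLPS vs PF4hLPS (16 and 26 without PF4hLPS library 1, 0 and 0 without EtOH4hLPS library 2), 1 to 22 and 4 to 52 pooled, and 1 to 4 and 0 to 4 for the interaction. Fragment totals are not in the table, so depth limits the values to an unknown extent.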

Other observations

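Of the 7 adipose markers, Adipoq and Cfd were at 4.62 and 6.93 FPKM in PF library 2, against at most 0.297 and 0.456 FPKM in the other 11 libraries. Pck1, which adipocytes also express, was at 955 FPKM in that library, between the other 2 PF libraries. Of the 9 liver markers, 4 averaged at least 1 FPKM, and Alb was at 4.59 to 14.95 FPKM.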
